A study of Mus musculus with 12 samples.

Results

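The 7 genes of cytosolic translation elongation that are described here were chosen by symbol: *Eef1a1* and *Eef1a2*, which encode the alternative forms of eEF1A, *Eef1b2*, *Eef1d* and *Eef1g*, which encode the subunits of its exchange factor eEF1B, *Eef2*, which encodes eEF2, and *Eef2k*, which encodes the kinase of eEF2. They are 7 of the 55450 genes in the count table, each was matched to an Ensembl identifier of the table by its symbol, and all 7 passed the filter on low counts. RNA was taken from tibialis anterior (TA) muscle, a fast muscle of the lower hindlimb, of WT mice on the 129Pas background (also written 129SvPas) at an embryonic age (E18.5), at 2 wks or at 7 wks. Each age had 4 mice and 4 libraries, 12 in all, and the labels name no mutation or treatment. The comparison addressed here is that between ages, before birth, in the growing animal and in the young adult.

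During elongation, eEF1A bound to GTP delivers each aminoacyl-tRNA to the ribosome and leaves bound to GDP, and eEF1B exchanges that GDP for GTP. eEF2 then moves the ribosome along the mRNA by a codon, and eEF2K, a kinase switched on by calcium, phosphorylates eEF2 and so slows elongation. Most cells use eEF1A1, whereas eEF1A2 is known as the form of adult skeletal muscle, heart and neurons, where it takes the place of eEF1A1 after birth.

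The genes of the pair lie on different chromosomes but encode nearly the same protein. In GENCODE vM39 on GRCm39, *Eef1a1* (ENSMUSG00000037742) lies at chr9:78384916-78396778 on the minus strand and *Eef1a2* (ENSMUSG00000016349) at chr2:180778581-180799838, also on the minus strand. Their coding sequences translate to 462 and 463 residues, of which 427 (92.2%) were identical, while 1110 of 1389 aligned coding bases (79.9%) were. The longest stretch of identical coding bases was 23, shorter than the reads, so that a read can be told to come from either gene. The first 90 coding bases of each are shown to make this visible, with the 15 positions at which they differ in capitals.

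Eef1a1: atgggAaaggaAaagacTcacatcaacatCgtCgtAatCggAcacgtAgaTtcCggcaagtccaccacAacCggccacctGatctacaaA

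Eef1a2: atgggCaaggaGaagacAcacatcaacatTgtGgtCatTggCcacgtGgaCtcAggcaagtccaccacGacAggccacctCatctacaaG

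Capitals are spread along the whole stretch. In RefSeq (GRCm38.p6) the 250 bases upstream of the start of *Eef1a1* are chr9:78481725-78481974 and those of *Eef1a2* are chr2:181157016-181157265, both on the minus strand. They are given because these genes moved in opposite directions, and matches to the GC box CCGCCC, searched on both strands, are in capitals.

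Eef1a1 upstream: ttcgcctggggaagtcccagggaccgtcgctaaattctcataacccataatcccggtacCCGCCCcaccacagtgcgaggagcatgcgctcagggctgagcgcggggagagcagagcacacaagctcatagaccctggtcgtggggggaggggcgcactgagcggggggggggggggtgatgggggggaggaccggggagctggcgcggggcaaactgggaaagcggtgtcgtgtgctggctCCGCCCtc

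Eef1a2 upstream: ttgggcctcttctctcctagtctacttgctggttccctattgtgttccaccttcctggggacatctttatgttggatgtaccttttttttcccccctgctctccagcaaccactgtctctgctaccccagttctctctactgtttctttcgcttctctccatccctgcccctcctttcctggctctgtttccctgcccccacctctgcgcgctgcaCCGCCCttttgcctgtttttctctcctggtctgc

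The *Eef1a1* window held 2 matches to CCGCCC and the *Eef1a2* window 1, while 33.0% of the 32536 distinct windows of that length in the RefSeq table held at least 1. Neither window held TATAAA, which 12.3% of all windows held, the E-box CAGCTG (13.1%) or the MEF2 motif (2.9%). Of the other members, *Eef2* had 1 match each to TATAAA and CAGCTG, and 2 of the 3 listed starts of *Eef2k* had 1 match to CCGCCC. The *Eef1b2* window held none of these motifs, and windows of *Eef1d* and *Eef1g* were not analysed here. These matches are letters only and no binding was measured.

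Some facts of the whole series bear on the values below. Library totals were 63018968 to 123449246 counts, and counting error was minor at such totals. The share of counts on the top 20 genes was 8.38% to 11.3% at E18.5, 32.2% to 35.3% in the 2 wks libraries and 36.3% to 37.7% in those of 7 wks, and TMM scaling, which sets the bulk of genes equal between libraries, therefore differed from scaling to the total. The median log2 change of all tested genes was -0.09 from E18.5 to 2 wks with TMM and -1.02 with the total count, and -0.03 and -0.38 from 2 to 7 wks. Muscle fibre markers (7 genes) summed to 12150 to 21570 counts per 1000000 (CPM) before birth, to 111700 to 141000 at 2 wks and to 117300 to 162300 in the 7 wks libraries, and all 7 were detected at every age. Over the same ages the fibroblast markers (7 genes) went from 5970 to 12290 over 4497 to 6172 to 979.7 to 4097 CPM, those of dividing cells (5 genes) from 385.6 to 564.6 over 73.09 to 147.2 to 2.869 to 13.4 CPM, and those of immature fibres (5 genes) from 9092 to 14100 over 2731 to 9459 to 717.4 to 3637 CPM. In whole muscle, fewer cells of a type and less RNA per cell cannot be told apart. In 4 libraries the genes of high GC content stood apart from the rest of their age: the median deviation of genes with at least 55% GC was -0.55 (log2) in E18.5 replicate 1, 0.50 in E18.5 replicate 2, -0.25 in 7 wks replicate 1 and 0.25 in 7 wks replicate 3, and lay between -0.09 and 0.10 in the others.

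The eEF1A transcripts changed more than the other members from E18.5 to 2 wks. *Eef1a1* fell from among the most abundant genes of the muscle, *Eef1a2* rose from a low level to 1330 CPM or more in every later library, and most of both changes had taken place by 2 wks. From E18.5 to 2 wks, 6 of the 7 genes passed edgeR's quasi-likelihood test, adjusted by the Benjamini-Hochberg method (4 higher, 2 lower), where 65.7% of the 19276 tested genes did (31.5% higher, 34.2% lower). From 2 to 7 wks, 2 of 7 passed (1 higher, 1 lower) against 27.5% of all genes (13.5% higher, 13.9% lower). Over the whole span from E18.5 to 7 wks all 7 passed (5 higher, 2 lower) against 71.4% (34.3% higher, 37.1% lower). With total count scaling the split of the members was 1 higher (*Eef1a2*) and 3 lower (*Eef1a1*, *Eef1b2* and *Eef2k*) to 2 wks, where 2552 of all genes were higher and 11917 lower. Over the whole span it was 1 higher (*Eef1a2*) and 3 lower (*Eef1a1*, *Eef1b2* and *Eef1g*), against 2293 higher and 13296 lower, and from 2 to 7 wks again 1 and 1, against 948 and 5391. With TMM the shares of members called are near the background, so it is the sizes and directions below that describe these genes.

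**Figure D1:**
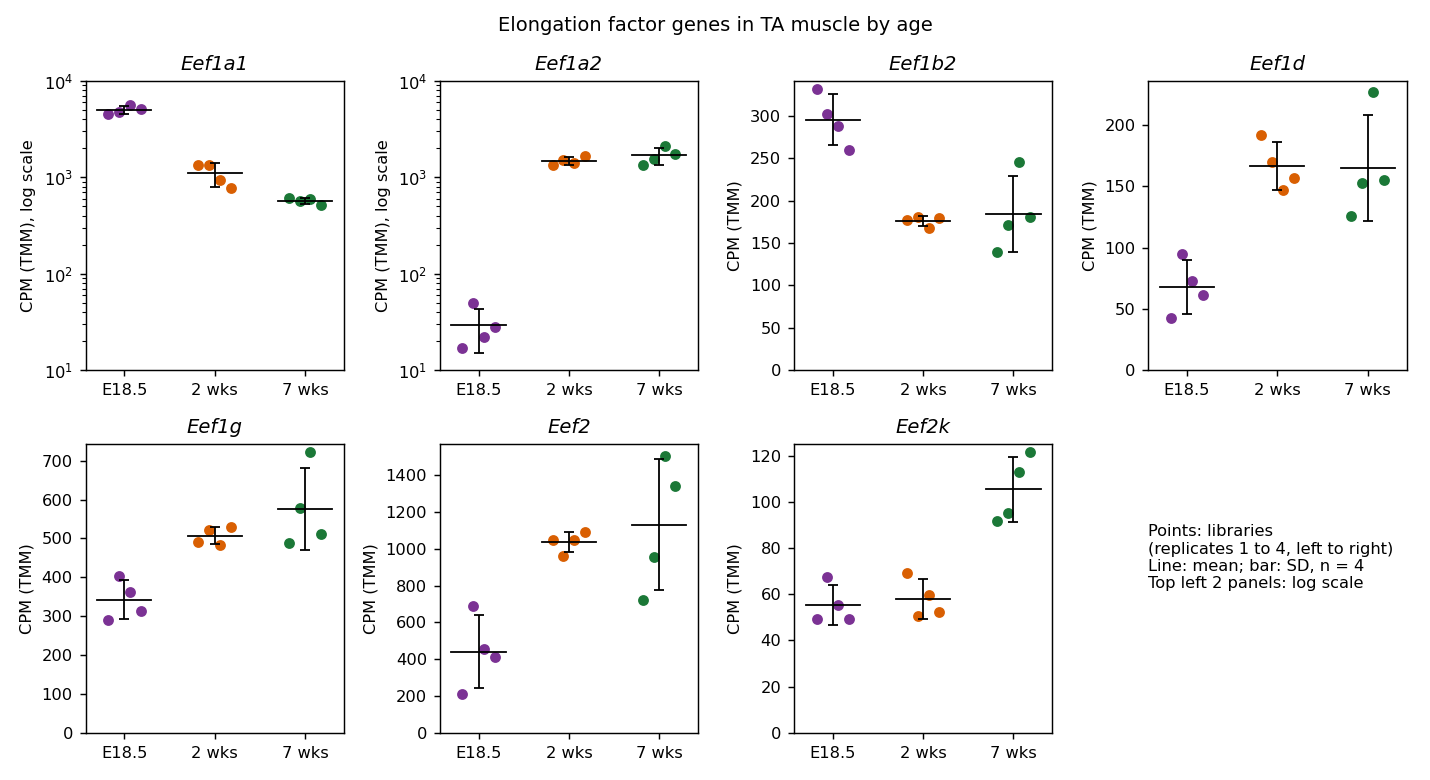
Level of each of the 7 genes in every library, in CPM with TMM scaling, on a log axis for *Eef1a1* and *Eef1a2* and a linear axis from 0 for the rest. Points are the 4 libraries of an age, and lines and bars give the mean and SD. *Eef1a1* drops from about 5034 to 573.7 CPM on average, *Eef1a2* climbs from 29.29 to 1694 CPM, and *Eef2k* is higher at 7 wks than at either earlier age, an order that turns against E18.5 with total count scaling.

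*Eef1a1*, the form of eEF1A in most cells, had 4563, 4751, 5661 and 5161 CPM in the E18.5 libraries (replicates 1 to 4 here and below). It had 1359, 1360, 929.2 and 771.6 CPM at 2 wks and 605.6, 575.4, 595.3 and 518.4 CPM at 7 wks. No library of an age overlapped the next, and the 2 wks libraries fell into a higher and a lower pair. By count it ranked between 3 and 7 among all genes at E18.5, between 63 and 141 at 2 wks and between 218 and 254 at 7 wks. Its log2 fold change was -2.19 ± 0.21 (SE, adjusted p = 1.5e-06 by edgeR) from E18.5 to 2 wks, a 4.56-fold lower level, and -0.95 ± 0.20 (adjusted p = 0.00417) from 2 to 7 wks, 1.93-fold lower. Over the whole span it was 8.78-fold lower (log2 -3.13 ± 0.22, adjusted p = 4.05e-08). Of the markers given above, 3 of 7 fibroblast genes, 4 of 5 immature fibre genes and 5 of 5 genes of dividing cells were lower at 2 wks than at E18.5, and 1 fibroblast gene was higher. Their part in the fall of *Eef1a1* was not tested.

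Reads of *Eef1a1* can come from its copies. The mouse genome holds 19 annotated pseudogenes that resemble it (at least 90% identity over at least 50% of the pseudogene), and 986 of its 1386 coding bases (71.1%) lie in stretches of 100 or more bases that recur exactly elsewhere. Counts on the 19 pseudogenes came to 0.58% to 1.3% of those on *Eef1a1*, and adding them changed no call. How reads that fit the gene and a copy equally well were counted is not given in the sources used here. Any left uncounted are not restored by that addition, so levels of *Eef1a1*, and ratios of *Eef1a1* or eEF1A to *Eef2*, may be too low. The share of *Eef1a2* and its ratio to *Eef1a1* may then be too high. The ratio of eEF1A to eEF1B may be off in either direction, as *Eef1g* has copies too. No stretch of 100 or more coding bases of *Eef1a2* recurs exactly elsewhere, though the lncRNA gene *Gm74714* overlaps the gene on the other strand.

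*Eef1a2*, the muscle and neuron form, had 17.16, 49.65, 22.03 and 28.33 CPM at E18.5, from 2476 to 8572 reads a library. At 2 wks it had 1345, 1527, 1414 and 1672 CPM, and at 7 wks 1330, 1555, 2124 and 1767 CPM. Every library after birth was far above every E18.5 library, while those of 2 and 7 wks overlapped. The rise to 2 wks was 50.9-fold (log2 5.67 ± 0.34, adjusted p = 2.61e-08 by edgeR). From 2 to 7 wks the log2 change was 0.19 ± 0.28 (adjusted p = 0.652), with the 7 wks library higher in 11 of 16 pairs of libraries. From E18.5 to 7 wks it was 57.8-fold higher (log2 5.85 ± 0.34, adjusted p = 1.04e-08). E18.5 replicate 2, the highest of its age for *Eef1a2*, was also the library of that age with the highest level of GC-rich genes. Without the 4 libraries shifted in GC content the rise to 2 wks was 5.89 (log2), and after removal of the GC trend of every library it was 5.56.

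The muscle fibre markers, all 7 of which rose from E18.5 to 2 wks (median log2 change 2.71), moved with *Eef1a2*, and their part in its rise was not tested. Markers of nerve and Schwann cells (8 genes), of interest because neurons also express *Eef1a2*, summed to 45.47 to 78.37 CPM before birth, to 83.93 to 446.9 in the 2 wks libraries and to 60.07 to 102.6 in those of 7 wks. Their part in the level of *Eef1a2* was not tested.

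Set against each other inside a library, where scaling between libraries plays no part, *Eef1a2* gained on *Eef1a1* at each later age. Of the reads on either gene, *Eef1a2* held 0.375%, 1.03%, 0.388% and 0.546% in the E18.5 libraries. The 2 wks libraries had 49.7%, 52.9%, 60.3% and 68.4%, and those of 7 wks 68.7%, 73%, 78.1% and 77.3%. The lowest library of each age was thus above the highest of the age before, if by little between 68.4% and 68.7%. The log2 ratio of *Eef1a2* to *Eef1a1* rose by 8.01 (257-fold) from E18.5 to 2 wks and by 1.08 (2.11-fold) from 2 to 7 wks. Both differences had p = 0.029 in a two-sided exact permutation test over the 70 regroupings of 4 libraries against 4, which is the smallest p that this design allows, and 0.036 after adjustment over the 15 ratio tests made. The ratio was higher at the later age in 16 of 16 pairs of libraries in both intervals. Between 2 and 7 wks *Eef1a1* passed the test by itself and *Eef1a2* did not, which does not show that *Eef1a1* alone moved the ratio.

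**Figure D2:**
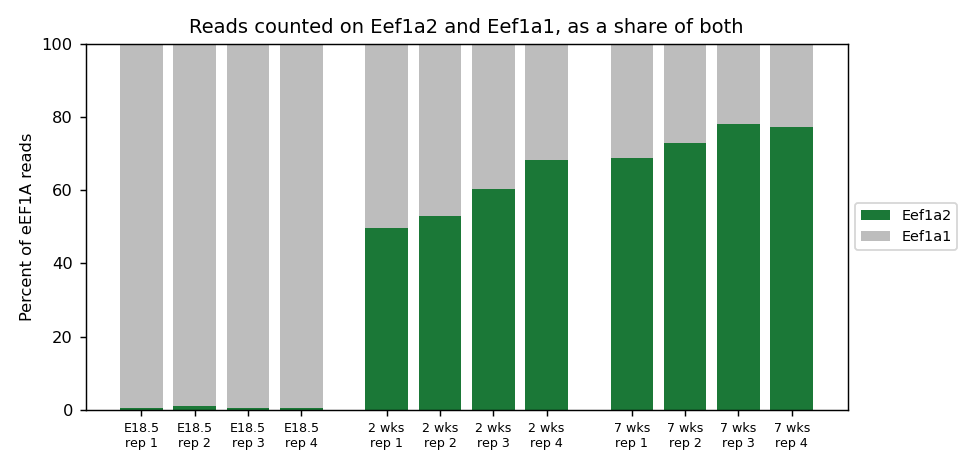
Share of the reads on *Eef1a2* (green) and *Eef1a1* (grey) in each of the 12 libraries, in percent of the reads on both genes. *Eef1a2* holds at most 1.03% before birth, 49.7% to 68.4% in the 2 wks libraries and 68.7% to 78.1% in those of 7 wks.

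The share depends on how reads are turned into transcripts. The union of exons of *Eef1a2* in GENCODE vM39 is 15014 bases long, most of it outside the coding sequence, and that of *Eef1a1* is 4968 bases long. The longest coding sequences, used for the values per coding length, have 1500 and 1386 bases. Per exonic length, *Eef1a2* made up 0.195% ± 0.103 of eEF1A transcripts before birth, 31.8% ± 7.64 in the 2 wks libraries and 49.1% ± 5.58 in those of 7 wks (SD, n = 4). Per coding length the shares were 0.541% ± 0.286, 56% ± 8.44 and 72.8% ± 4.5. Whether *Eef1a2* exceeded *Eef1a1* after birth therefore turned on the length used, but the change of their ratio between ages did not, because the same lengths apply at every age.

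The exchange factor subunits did not move as a group. *Eef1b2*, the subunit that catalyses nucleotide exchange on eEF1A, had 331.4, 302.3, 288.5 and 259.2 CPM at E18.5 and 176.8, 181.2, 167.3 and 179.5 CPM at 2 wks. It had 139.4, 171.6, 245.1 and 180.5 CPM at 7 wks. All E18.5 libraries were above all later ones, and the later ages overlapped. The log2 change was -0.75 ± 0.17 (adjusted p = 0.00136 by edgeR) to 2 wks and 0.06 ± 0.17 (adjusted p = 0.807) after that. *Eef1b2* (chr1:63215940-63219645, plus strand) overlaps *Ndufs1* on the other strand and holds snoRNA genes.

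*Eef1d*, a further subunit with exchange activity, had 42.41, 94.84, 72.81 and 61.15 CPM at E18.5, and 192.2, 170, 146.9 and 156.5 CPM at 2 wks. At 7 wks it had 125.6, 152.4, 226.8 and 155.2 CPM. The libraries after birth were all above those of E18.5 and overlapped between 2 and 7 wks. The log2 change was 1.30 ± 0.24 (adjusted p = 0.000285 by edgeR) to 2 wks and -0.01 ± 0.23 (adjusted p = 0.976) from 2 to 7 wks. *Eef1d* (chr15:75766054-75782564, minus strand) overlaps *Naprt* on the same strand, so reads of the overlap cannot be assigned to either gene.

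*Eef1g*, the structural subunit of eEF1B, had 289.3, 402.9, 363.1 and 314.5 CPM at E18.5, and 491.9, 522.2, 484.3 and 528.3 CPM at 2 wks. At 7 wks the libraries had 488.1, 578, 721.9 and 511 CPM. Again E18.5 stood below both later ages, which overlapped, though not with total count scaling (those values follow the ones of *Eef2*). The log2 change was 0.57 ± 0.16 (adjusted p = 0.00756 by edgeR) to 2 wks and 0.18 ± 0.16 (adjusted p = 0.432) after that. Of its 1311 coding bases, 1192 (90.9%) lie in exact stretches of 100 or more bases found elsewhere in the genome, and 5 pseudogenes resemble it. Counts on these were 0.84% to 1.5% of those on *Eef1g* (chr19:8944369-8955843, plus strand). As for *Eef1a1*, it is not known how many reads went uncounted because they fit a copy equally well.

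*Eef2*, the translocase, had 209.5, 688.7, 454 and 411.8 CPM at E18.5. At 2 wks it had 1047, 961, 1045 and 1092 CPM, and at 7 wks 721.9, 955.8, 1505 and 1342 CPM. It lies at chr10:81012465-81018348 on the plus strand. The 2 wks libraries lay close together, while the highest of E18.5 was 688.7 CPM and the lowest of 7 wks 721.9 CPM, so that the ages before and after birth were just apart. The log2 change was 1.23 ± 0.31 (adjusted p = 0.00294 by edgeR) to 2 wks and 0.13 ± 0.30 (adjusted p = 0.789) from 2 to 7 wks.

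*Eef1d* and *Eef2* are the members richest in GC (58.7% and 57.0%, against 46.2% to 52.0% in the others). In each, the lowest and the highest library of E18.5 and of 7 wks were the 4 libraries shifted in GC content. The same held for *Eef1a2* (50.3% GC) and *Eef1g* (52.0%), so this was not particular to the members richest in GC. Without those 4 libraries the log2 change to 2 wks was 1.32 for *Eef1d*, 0.59 for *Eef1g* and 1.27 for *Eef2*, and all of these passed the test (adjusted p from 5.97e-05 to 0.00433 by edgeR). With the GC trend of every library removed, which also takes out any trend between ages, it was 0.15 (adjusted p = 0.264), 0.28 (0.0723) and 0.33 (0.106), and none of the 3 passed; from E18.5 to 7 wks all 3 still did (0.39, 0.41 and 0.60). With the total count as the scale the changes to 2 wks were 0.37 for *Eef1d* (adjusted p = 0.176), -0.37 for *Eef1g* (0.0611) and 0.30 for *Eef2* (0.378), so the direction for *Eef1g* turned. From E18.5 to 7 wks they were -0.01 (0.984), -0.54 (0.00876) and 0.07 (0.833), so that *Eef1g* passed as lower and the others did not pass. Libraries of E18.5 then overlapped those of both later ages in all 3 genes. The part of GC content in these rises was not tested beyond these values. *Eef1a1*, *Eef1a2* and *Eef1b2* passed with the same direction in all 3 settings.

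**Figure D3:**
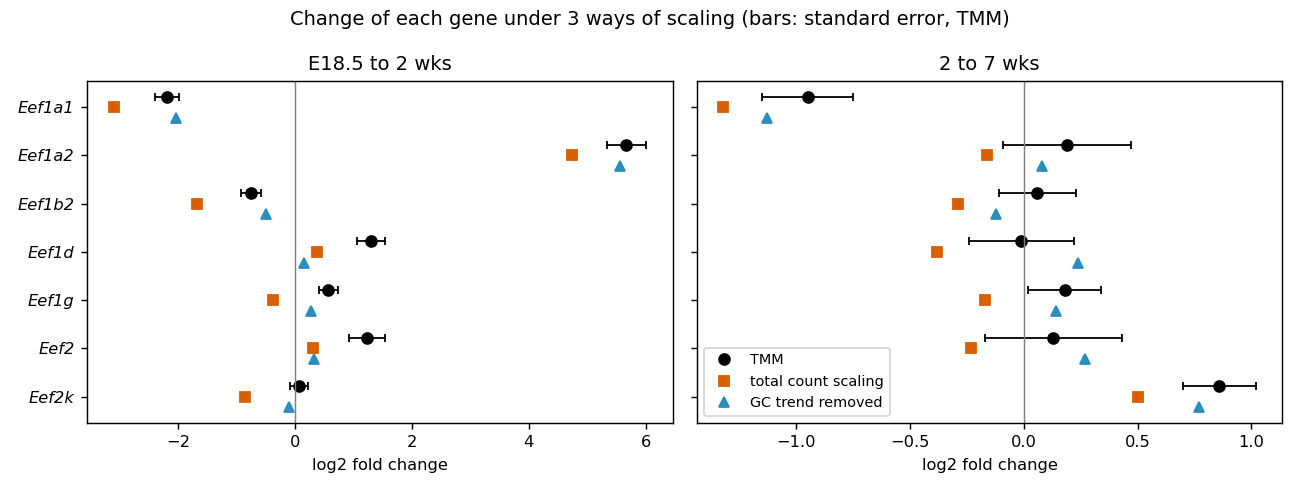
Log2 fold change of each gene from E18.5 to 2 wks (left) and from 2 to 7 wks (right) with TMM scaling (black, bars give the SE), with total count scaling (orange) and after removal of the GC trend (blue). *Eef1a1* stays below 0 and *Eef2k* above 0 in the right panel in all 3 settings, whereas *Eef1g* and *Eef2k* change sign with the total count in the left panel (-0.37 and -0.86).

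*Eef2k* kept another timetable. Its libraries had 49.13, 67.55, 55.56 and 49.37 CPM at E18.5 and 69.37, 50.69, 59.89 and 52.16 CPM at 2 wks. They had 91.77, 95.09, 113.1 and 121.4 CPM at 7 wks, above every library of the earlier ages, which overlapped. The log2 change was 0.07 ± 0.16 (adjusted p = 0.722 by edgeR) to 2 wks, with the later library higher in 11 of 16 pairs, and 0.86 ± 0.16 (adjusted p = 0.00163), 1.82-fold, from 2 to 7 wks, with 16 of 16 pairs. With total count scaling *Eef2k* fell by 0.86 on the log2 scale to 2 wks (adjusted p = 0.000403) and rose by 0.50 (adjusted p = 0.0362) from 2 to 7 wks, so the later rise held in both scalings and the earlier value did not. Per total count the E18.5 libraries had 79.57 to 111.5 CPM, those of 2 wks had 42.28 to 65.65 CPM and those of 7 wks had 64.17 to 83.95 CPM, so the order of E18.5 and 7 wks turned too. The log2 change over the whole span was then -0.35 (adjusted p = 0.0691 by edgeR), and the call was lost. No pseudogene resembles *Eef2k* (chr7:120441877-120506674, plus strand).

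Whether the change to 2 wks differed from the later one had a separate test, of the later log2 change minus the earlier one. It passed for 5 of the 7 genes, against 38.4% of all tested genes. *Eef1a2* had the largest difference among them, -5.48 ± 0.46 (adjusted p = 3.11e-06 by edgeR). *Eef1a1* had 1.24 ± 0.36 (adjusted p = 0.0151), as its fall to 2 wks was the steeper. *Eef1d* had -1.31 (0.0188), *Eef2k* 0.79 (0.0354) and *Eef1b2* 0.81 (0.0412), whereas *Eef2* had -1.11 (0.103) and *Eef1g* -0.38 (0.293). *Eef1a2* passed in every setting run, and the others did not. With the GC trend removed *Eef1d* turned to 0.08 (adjusted p = 0.785 by edgeR), *Eef1b2* (0.38, 0.396) and *Eef1a1* (0.91, 0.0623) lost the call, and *Eef2k* kept it. *Eef1b2* and *Eef2k* also lost it with no filter and with the replicate block, and *Eef1d* with total count scaling (-0.75, 0.156). *Eef1b2* lost it without any 1 of the 2 wks libraries, E18.5 replicate 1 or 3, or 7 wks replicate 2 or 4. *Eef2k* lost it without 2 wks replicate 2, 3 or 4, E18.5 replicate 3 or 7 wks replicate 4. *Eef1a1* lost it without 2 wks replicate 3 or 4, and *Eef1d* without 2 wks replicate 1. Without 2 wks replicate 3 or 2 wks replicate 4, 2 of the 7 passed.

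Compared per length inside each library, eEF1A transcripts (both genes together) fell against the other factors. The log2 ratio of eEF1A to *Eef2* per exonic length was 4.07, 2.42, 3.27 and 3.28 at E18.5. The 2 wks libraries had 0.41, 0.58, 0.05 and -0.09, and those of 7 wks 0.16, -0.18, -0.59 and -0.66. It differed by -3.02 between E18.5 and 2 wks (exact permutation p = 0.029, adjusted 0.036) and by -0.55 between 2 and 7 wks (p = 0.114 by the same exact test, adjusted 0.122). Per coding length the E18.5 libraries had 3.71 to 5.36, the 2 wks libraries 2.00 to 2.44 and the 7 wks libraries 1.59 to 2.26, a smaller difference of -2.38 (adjusted exact permutation p = 0.036) and then of -0.29 (0.2). E18.5 replicates 1 and 2, the GC-shifted libraries of that age, gave its extremes, and with the GC trend removed the differences were -1.91 and -0.90 (adjusted exact permutation p = 0.033 for both).

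The ratio of eEF1A to the mean of the eEF1B subunits was steadier within ages. Its mean log2 was 3.93 ± 0.20 before birth, 2.09 ± 0.24 at 2 wks and 1.49 ± 0.14 in the 7 wks libraries (SD, n = 4). It fell by 1.83 and then by 0.61, each with an adjusted exact permutation p of 0.036, and no ages overlapped. Per coding length, where *Eef1a2* weighs more, the means were 3.99 ± 0.20, 2.94 ± 0.12 and 2.62 ± 0.11.

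The ratio of the kinase *Eef2k* to its substrate *Eef2* dipped and came back. In the E18.5 libraries its log2 value was -3.20, -4.46, -4.14 and -4.17, against -5.03, -5.36, -5.24 and -5.50 at 2 wks and -4.09, -4.44, -4.84 and -4.58 at 7 wks. The 2 wks libraries were below those of both other ages. It differed by -1.29 between E18.5 and 2 wks and by 0.79 between 2 and 7 wks (adjusted exact permutation p = 0.036 for both), and by -0.49 between E18.5 and 7 wks (adjusted exact permutation p = 0.2). With the GC trend removed the first difference was -0.45 (adjusted exact permutation p = 0.061) and the later one 0.53 (0.033). For *Eef1a1* against *Eef2* the mean log2 ratio per exonic length was 3.26 ± 0.68, -0.32 ± 0.47 and -1.30 ± 0.54 at the 3 ages, a difference of -3.58 (adjusted exact permutation p = 0.036) and then of -0.98 (0.066).

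**Figure D4:**
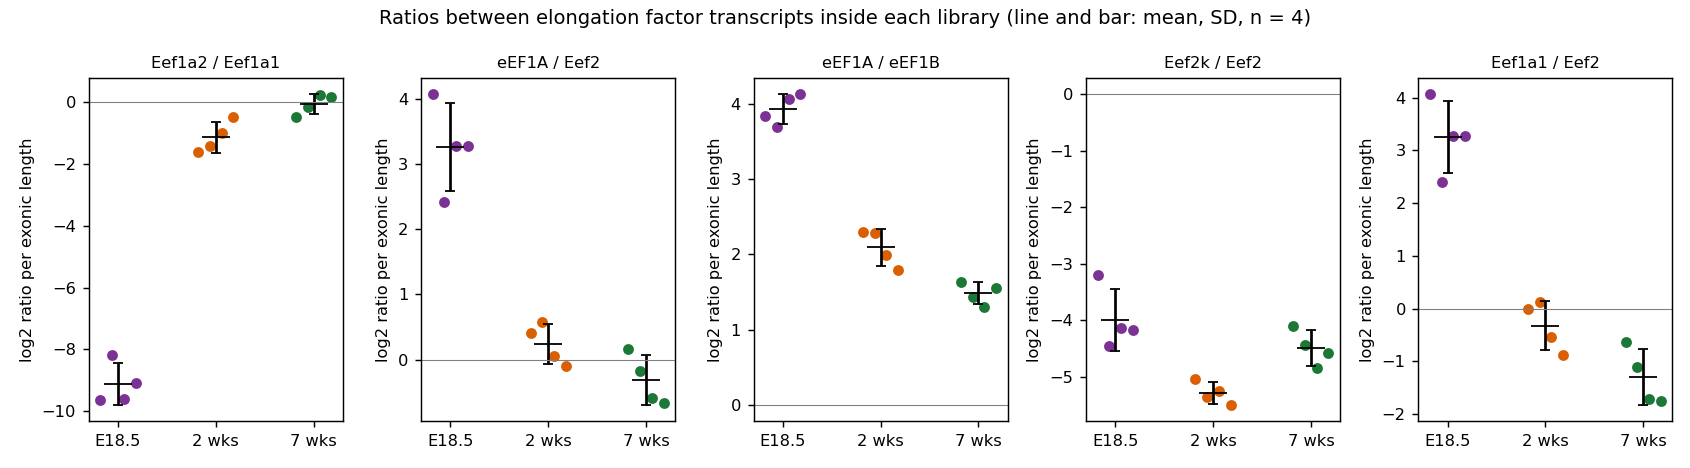
Log2 ratios per exonic length between elongation factor transcripts inside each library, with the mean and SD of the 4 libraries of an age. The ratio of *Eef1a2* to *Eef1a1* climbs from -9.13 to -0.05 on average, those of eEF1A to *Eef2* and to eEF1B fall, and that of *Eef2k* to *Eef2* is lowest at 2 wks.

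The order of the levels changed with age. Per exonic length, in CPM per kilobase, *Eef1a1* led at E18.5 with 1013 ± 97.95 (SD, n = 4), followed by *Eef2* (114.9 ± 51.25), *Eef1g* (105.4 ± 15.58) and *Eef1b2* (88.67 ± 9.001), which overlapped each other. *Eef2k* (6.684 ± 1.041) and *Eef1d* (6.022 ± 1.949) overlapped as well, and *Eef1a2* was last (1.951 ± 0.9539), below every library of the others. Per coding length the order at E18.5 was another one, with *Eef1b2* (405.1 ± 41.13) and *Eef1g* (252.5 ± 37.35) ahead of *Eef2* (169.2 ± 75.43) in mean level, *Eef2* overlapping *Eef1g*, and *Eef1a2* (11.44 to 33.1) overlapped *Eef2k* (22.22 to 30.55) and *Eef1d* (20.82 to 46.56). At 7 wks, per exonic length again, *Eef2* led (294.8 ± 93.05) ahead of *Eef1g* (176.9 ± 32.4), *Eef1a1* (115.5 ± 7.834) and *Eef1a2* (112.8 ± 22.49), and *Eef1b2* (55.28 ± 13.3), *Eef1d* (14.66 ± 3.846) and *Eef2k* (12.71 ± 1.716) followed. The ranges of *Eef2* and *Eef1g*, of *Eef1a1* and *Eef1a2*, and of *Eef1d* and *Eef2k* overlapped at 7 wks. Per coding length *Eef1a2* was instead highest at 7 wks (1129 ± 225.1), with *Eef2* (433.9 ± 137), *Eef1g* (423.9 ± 77.64) and *Eef1a1* (413.9 ± 28.08) behind it. The ranges of *Eef2*, *Eef1g* and *Eef1a1* overlapped there, so their order was not resolved. All 7 genes together took 0.891% to 1.22% of all counts before birth, 0.35% to 0.443% in the 2 wks libraries and 0.245% to 0.369% in those of 7 wks.

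Among 4087 tested genes (log2 CPM averaging at least 5), the patterns over the 12 libraries most like that of *Eef1a2* were those of *Wfdc1*, which encodes a secreted protein (Pearson's r = 0.9994), *Sgca*, which encodes alpha-sarcoglycan (0.9984), *Adsl*, an enzyme of purine synthesis (0.9983), *Ak1*, adenylate kinase (0.9981), and *Dele1*, a mitochondrial stress gene (0.9979). They rose by 2.43 to 3.77 (log2) from E18.5 to 2 wks and moved by 0.07 to 0.16 after that. For *Eef1a1* the most alike were *Pabpc1*, which encodes the poly(A)-binding protein (0.9964), the glypican *Gpc3* (0.9932), the initiation helicase *Eif4a1* (0.991), the ribosomal protein gene *Rpl3* (0.9901) and *Capn6* (0.9887). With 3 clusters of libraries, one for each age, such values describe the step between ages and carry no test.

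Other genes of translation were counted by list, each beside the background shares above. Of the 7 genes that modify or partner eEF1A, 3 were higher and 1 lower from E18.5 to 2 wks (median log2 change 0.09). *Eef1akmt4*, an eEF1A methyltransferase, had the largest rise (0.99), from a low mean of 0.8553 to 1.702 CPM. *Eef1akmt2*, another, had the only fall that passed (-1.07), and *Vars1*, the valyl-tRNA synthetase that binds eEF1, rose by 0.93. From 2 to 7 wks 0 of the 7 passed by edgeR (1 at an unadjusted p under 0.05) and 1 by DESeq2. Of the 8 genes for eEF2 modification, 2 were higher and 2 lower to 2 wks (median 0.19), and 0 passed later by edgeR (0 at an unadjusted p under 0.05) and 0 by DESeq2. *Dph3*, which serves in the synthesis of diphthamide on eEF2, rose by 1.69, and *Dph6*, the last enzyme of that path, fell by 0.76 on the log2 scale. Per total count both lists summed lower at 2 wks than at E18.5. The eEF1A list had 78.53 to 84.85 against 105.8 to 136.8 CPM, and the eEF2 list 92.11 to 102.1 against 105.9 to 125.7 CPM.

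Of 17 genes known to regulate eEF2K, among them AMPK, mTOR, S6 kinase, RSK and PP2A subunits, 9 were higher and 5 lower to 2 wks (median 0.87), and 4 were higher and 0 lower from 2 to 7 wks (median 0.27) by edgeR (0 lower at an unadjusted p under 0.05, and 0 lower by DESeq2). *Prkag3* and *Prkag2*, which encode alternative gamma subunits of AMPK, had the largest rise (2.26) and the largest fall (-1.68). From 2 to 7 wks, when *Eef2k* rose, the genes that passed included *Prkab2* (1.46) and *Prkaa2* (0.87), which encode subunits of AMPK. With the total count the split to 2 wks was 4 higher and 8 lower. In the eIF5A list (4 genes) *Dohh*, the last enzyme of hypusine synthesis, rose by 2.66 to 2 wks, from a low mean of 0.5349 to 3.401 CPM. *Eif5a* and *Dhps* rose as well (1.05 and 0.88), and *Eif5a2* fell (adjusted p = 0.00419 by edgeR). *Dhps* alone of the 4 passed from 2 to 7 wks (0.58). Per total count the 4 summed to 221.5 to 382 CPM at E18.5 and 289.2 to 372.9 CPM at 2 wks, so these ages overlapped. Among genes of ribosome rescue and selenocysteine insertion (4 genes), *Pelo* rose by 2.77 to 2 wks, from a low mean of 0.456 to 3.117 CPM. *Abce1* fell by 0.51 on the log2 scale to 2 wks, and *Hbs1l* had the larger of the 2 later rises (0.58). Per total count these 4 genes summed to 227.8 to 327.2 CPM at E18.5 and to only 131.2 to 147.8 CPM at 2 wks. Of the 3 termination genes *Gspt2* had the larger of 2 falls to 2 wks (-2.43), and *Etf1* rose later (0.77).

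Of 36 initiation genes, 16 were higher and 5 lower to 2 wks (median 0.36), led by *Eif2b4* (2.01) and *Eif4a1* (-0.99), and 17 were higher and 1 lower from 2 to 7 wks (median 0.36), led by *Eif4ebp2* (1.06) with *Eif4a1* again the fall (-0.56). *Eif4a1*, like *Eef1a1*, was lower at each age than at the one before. With total count scaling the split to 2 wks turned to 2 higher and 23 lower, and the later one was 3 higher and 2 lower. The mitochondrial elongation genes (5), which serve translation inside mitochondria, had 4 higher and 1 lower to 2 wks (median 1.17). *Tufm* had the largest rise (1.70) and *Guf1* the fall (-0.63), and *Gfm2* rose after that (0.56). Per total count the 5 genes summed to 309 to 507.2 CPM at E18.5 and 392 to 462.7 CPM at 2 wks, so these ages overlapped. Among the 78 cytosolic ribosomal protein genes, a like class of abundant genes, 30 were higher and 15 lower to 2 wks (median 0.31) and 0 higher and 5 lower from 2 to 7 wks (median -0.29) by edgeR (1 higher at an unadjusted p under 0.05, and 0 higher by DESeq2). *Rpl3* fell in both intervals (-1.69 and -1.05), and *Rpl36* had the largest rise to 2 wks (3.32). With the total count the split to 2 wks was 6 higher and 40 lower.

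**Figure D5:**
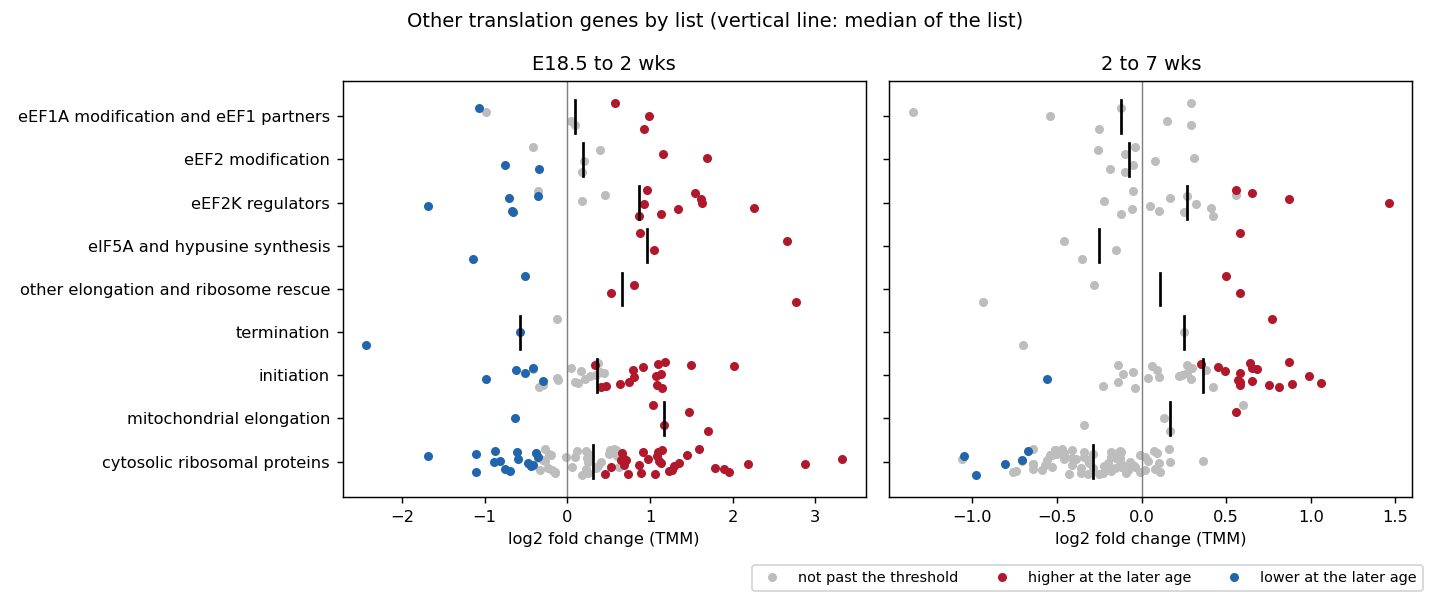
Log2 fold change with TMM scaling of each tested gene of 9 lists of translation genes from E18.5 to 2 wks (left) and from 2 to 7 wks (right, on a narrower axis). Red and blue points passed the test as higher or lower at the later age, grey points did not, and the vertical line is the median of the list. Most initiation genes that passed were higher at the later age in both panels (16 of 21 and 17 of 18), which turned with total count scaling in the left panel.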

How the data were processed

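RNA of TA muscle of 12 WT mice (4 at E18.5, 4 at 2 wks, 4 at 7 wks) was sequenced as paired-end libraries of a stranded mRNA kit. The deposited values are raw counts per Ensembl gene, which the authors made from the reads. The submitters' processing notes name bcl2fastq 2.17.1.14, cutadapt 1.10, STAR 2.5.3a, HTSeq 0.6.1p1 and mm10, while the study's methods name GRCm39. The annotation and the strand setting of the counting are not given in the sources used here, and without strand, reads of overlapping genes on opposite strands cannot be told apart. All per-sample columns were used. The transcript quantification was not analysed here. The edgeR p-values rest on the spread between mice of the same age, estimated jointly over all ages. Those of the ratios rest on regroupings of the libraries.

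Counts were scaled by TMM, filtered with filterByExpr (19276 genes kept, 36174 removed) and compared in edgeR 4.0.16 by its quasi-likelihood test, with limma 3.58.1 under R 4.3.3, in 1 fit of 12 libraries with age as the only term, Benjamini-Hochberg adjustment over all genes tested and a threshold of 0.05. CPM values use TMM-scaled library sizes, and the SE of a fold change is its size over the square root of the F statistic. Ratios inside libraries were tested with two-sided exact permutation tests (scipy 1.17.1), adjusted over 15 tests. Gene symbols, coordinates and lengths come from GENCODE vM39 on GRCm39, in which 51477 of the table's identifiers were found and 3973, with 0.0394% of the counts, were not. GC content was known for 98.7% of the tested genes. Copies were found with blastn 2.17.0, upstream windows come from the RefSeq table on GRCm38.p6, and figures were drawn with matplotlib 3.10.9. The procedure was tested on simulated data in which few genes changed between ages, a setting that does not test the choice of scaling.

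The 7 genes, the lists and the rule for naming genes were chosen with earlier results of these data known. Named are all 7 members, from each translation list the largest rise and fall past the threshold in each interval and any gene that a count of 5 or fewer needs, and the 5 genes most like *Eef1a1* and *Eef1a2*. *Eif5a* was named for such a count, and *Vars1* was named after its value was seen. Alternatives were total count and upper-quartile scaling, DESeq2 1.42.0, TMM with the top 20 genes and the 37 genes of the mitochondrial genome left out, other filters (none, or a minimum of 10 counts per library), a replicate block, only the 8 libraries compared, a log2 fold change beyond 1 (glmTreat), the GC trend removed, pseudogene counts added, other lengths for the ratios and each library left out. Chosen after seeing the data were leaving out the 4 libraries shifted in GC content and the removal of the GC trend from the ratios. One gene of the eEF2K regulator list is counted but not reported here by name.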

Additional observations from a re-analysis of the deposited data

How the results depend on the processing

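*Eef1a1*, *Eef1a2* and *Eef1b2* kept direction and call from E18.5 to 2 wks in all alternatives except, for *Eef1b2*, the threshold of a log2 fold change beyond 1. With that threshold 2, 0, 2 and 1 of the 7 genes passed (to 2 wks, from 2 to 7 wks, from E18.5 to 7 wks and for the difference of the intervals), and 5507, 561, 7574 and 2463 of all genes; from 2 to 7 wks DESeq2, which tests against no change, called 2 of the 7. With the GC trend removed 3 genes passed to 2 wks and 2 for the difference of the intervals, and with total count scaling 4 passed from E18.5 to 7 wks. For the difference of the intervals 3 passed with no filter, and 2 to 6 with a library left out (2 without 2 wks replicate 3 or 4). Leaving out 1 library gave 3472 to 6146 calls among all genes from 2 to 7 wks, against 5295 with all; the lowest was without 2 wks replicate 1. The cause of these changes was not tested.

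Signs turned as follows. With total count scaling, to 2 wks: *Eef1g* -0.37 and *Eef2k* -0.86; from 2 to 7 wks: *Eef1a2* -0.16, *Eef1b2* -0.29, *Eef1g* -0.17 and *Eef2* -0.23; from E18.5 to 7 wks: *Eef1d* -0.01, *Eef1g* -0.54 and *Eef2k* -0.35; for the difference of the intervals: *Eef1g* 0.19. *Eef2k* to 2 wks was -0.07 with upper-quartile scaling, -0.05 with at least 10 counts in every library, -0.10 with the GC trend removed, and 0.00 to 0.18 with a library left out. From 2 to 7 wks *Eef1b2* was -0.04 with upper-quartile scaling, -0.12 with the GC trend removed, 0.00 without the 4 libraries shifted in GC content and -0.10 to 0.18 with a library left out. *Eef1d* was 0.24 with the GC trend removed (0.08 for the difference of the intervals) and -0.20 to 0.10 with a library left out, and *Eef2* was -0.04 to 0.29. With the GC trend removed the ratio of eEF1A to *Eef2* from 2 to 7 wks was -0.90 and that of *Eef1a1* to *Eef2* -1.33, both then past the threshold, while *Eef2k* to *Eef2* to 2 wks was -0.45, no longer past it, and from E18.5 to 7 wks 0.07. Without 1 library, or with the block, the permutation tests of the ratios cannot reach 0.05, so they are values only.

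The replicate numbers do not pair the mice by any label, and deviations of same-numbered libraries correlated by -0.142 to 0.284. With the replicate block 6, 2 and 7 genes passed in the comparisons of ages, as without it, and 3 instead of 5 for the difference of the intervals. At 2476 or more reads per member and library, depth did not limit these values.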
